A study of Mus musculus with 24 samples.

Results

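The transcripts of 9 matrix metalloproteinases (MMPs), Mmp2, Mmp3, Mmp8, Mmp9, Mmp10, Mmp12, Mmp13, Mmp14 and Mmp19, and of the tissue inhibitor Timp1 were followed in mouse skin and skin wounds. These 10 genes were picked by symbol out of 18368 genes in the expression table, and all 10 were present. RNA-seq had been run on whole skin of 12 CD1 mice, which were 7 weeks old, with hair follicles in telogen (the resting phase), when they were wounded. Each mouse was wounded at a single site, the abdomen, the back or the cheek, with 4 mice per site, and gave 2 libraries. The wound library came from a punch wound 2 mm across at day 3, and the unwounded library from healthy skin beside it, so every unwounded sample also came from a wounded animal. Mice had 1 wound on the cheek but 2 on the abdomen or back, and the labels do not say whether both wounds of a mouse went into 1 library. Wound number therefore cannot be told apart from site when the cheek is compared with the others. Mice are numbered 1 to 4 within each site, and a number names a different animal at each site.

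MMPs are zinc-dependent endopeptidases that cut collagens, laminins, fibronectin, elastin and other proteins of the extracellular matrix, as well as cytokines and cell surface proteins. Most are secreted as inactive proenzymes that other proteases or other MMPs activate, and TIMPs block the active enzymes. In healing skin they are known for their part in the migration of keratinocytes over the wound bed, the entry of leukocytes and the remodelling of the dermis. RNA levels report none of the activation or inhibition steps.

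The members lie on 6 chromosomes in GRCm38, and 5 of them lie in a gene cluster on chromosome 9. That cluster spans 427 kb (7272514 to 7699585) and holds 10 MMP genes, in the order Mmp13, Mmp12, Mmp1b, Mmp3, Mmp1a, Mmp10, Mmp8, Mmp27, Mmp20 and Mmp7. Mmp2 lies on chromosome 8 (92827290 to 92853421), Mmp9 on chromosome 2 (164940326 to 164955850), Mmp19 on chromosome 10 (128790910 to 128800827), Mmp14 on chromosome 14 (54431598 to 54442456) and Timp1 on chromosome X (20870166 to 20874737). Promoter sequences from RefSeq (GRCm38.p6, 250 bases before to 50 after the start) were matched for 7 of the 10 members, namely Mmp3, Mmp8, Mmp10, Mmp12 (with 2 start sites), Mmp13, Mmp14 and Timp1. The letters TGANTCA, the site that AP-1 factors such as Fos and Jun dimers recognise, were searched on both strands, as were TATAAA, a core promoter element that sets the start of transcription, and AGGAAG (PEA3/ETS). TGANTCA occurred in 7.81% of all 32851 promoters in the table, TATAAA in 13.6% and AGGAAG in 35.4%. The last 100 bases before the start are printed for the 4 cluster members that hold TGANTCA, so that the letters and their distance from the start can be set beside the wound values of these neighbours, and for Timp1, which rose as well but whose window holds none. All run 5′ to 3′ on the plus strand, and capitals mark TGANTCA or TATAAA.
Mmp13 (chr9:7272414-7272513): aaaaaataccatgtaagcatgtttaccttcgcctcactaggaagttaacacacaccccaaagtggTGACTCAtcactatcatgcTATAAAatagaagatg
Mmp10 (chr9:7502242-7502341): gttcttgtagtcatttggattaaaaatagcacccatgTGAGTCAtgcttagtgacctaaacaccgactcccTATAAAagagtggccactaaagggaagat
Mmp3 (chr9:7445722-7445821): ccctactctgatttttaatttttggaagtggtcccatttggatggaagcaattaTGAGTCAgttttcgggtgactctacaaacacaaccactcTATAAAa
Mmp12, second start (chr9:7347274-7347373): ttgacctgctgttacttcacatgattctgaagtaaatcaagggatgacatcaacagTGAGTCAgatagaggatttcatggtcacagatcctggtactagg
Timp1 (chrX:20870066-20870165): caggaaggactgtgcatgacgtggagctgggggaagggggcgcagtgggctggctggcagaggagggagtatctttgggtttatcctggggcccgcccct
In Mmp13 the AP-1 letters lie at bases -35 to -29 from the start, in Mmp12 at -44 to -38, in Mmp3 at -46 to -40 and in Mmp10 at -63 to -57. TATAAA follows them at -16 to -11 in Mmp13, -7 to -2 in Mmp3 and -29 to -24 in Mmp10, and at 5 to 10 past the start in Mmp12. TGANTCA was not found in the windows of Mmp8, Mmp14, Timp1 or the first start of Mmp12, which says only that these letters are not there. AGGAAG occurred, on 1 strand or the other, in Mmp3, Mmp8, Mmp12 (first start), Mmp13, Mmp14 and Timp1. Matching letters are a description and not evidence of binding.

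Levels are FPKM, fragments per kilobase of transcript corrected for the number of mapped fragments, a scale on which genes may be compared with each other. Each library held between 15781 and 16577 genes above 0, and the deposited values hold no counts, so depth and counting error are unknown. From 189 genes with regular steps among their lowest values, depth relative to the other libraries was roughly 0.947 to 1.06. The skin labels were borne out by epidermal markers (Krt5, Krt14, Krt1, Krt10 and others, summed 6613.63 to 18836.6 FPKM) and fibroblast markers (804.54 to 1969.71 FPKM) in all 24 libraries. Skeletal muscle markers summed to 10906.8 to 21699.8 FPKM in unwounded back and cheek, but ranged from 480.45 to 14754.7 FPKM in unwounded abdomen, where mouse 2 was lowest. In wounds they summed to 1664 to 6356.02 FPKM. In whole tissue, fewer cells of a type and less RNA per cell cannot be told apart.

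**Figure D1:**
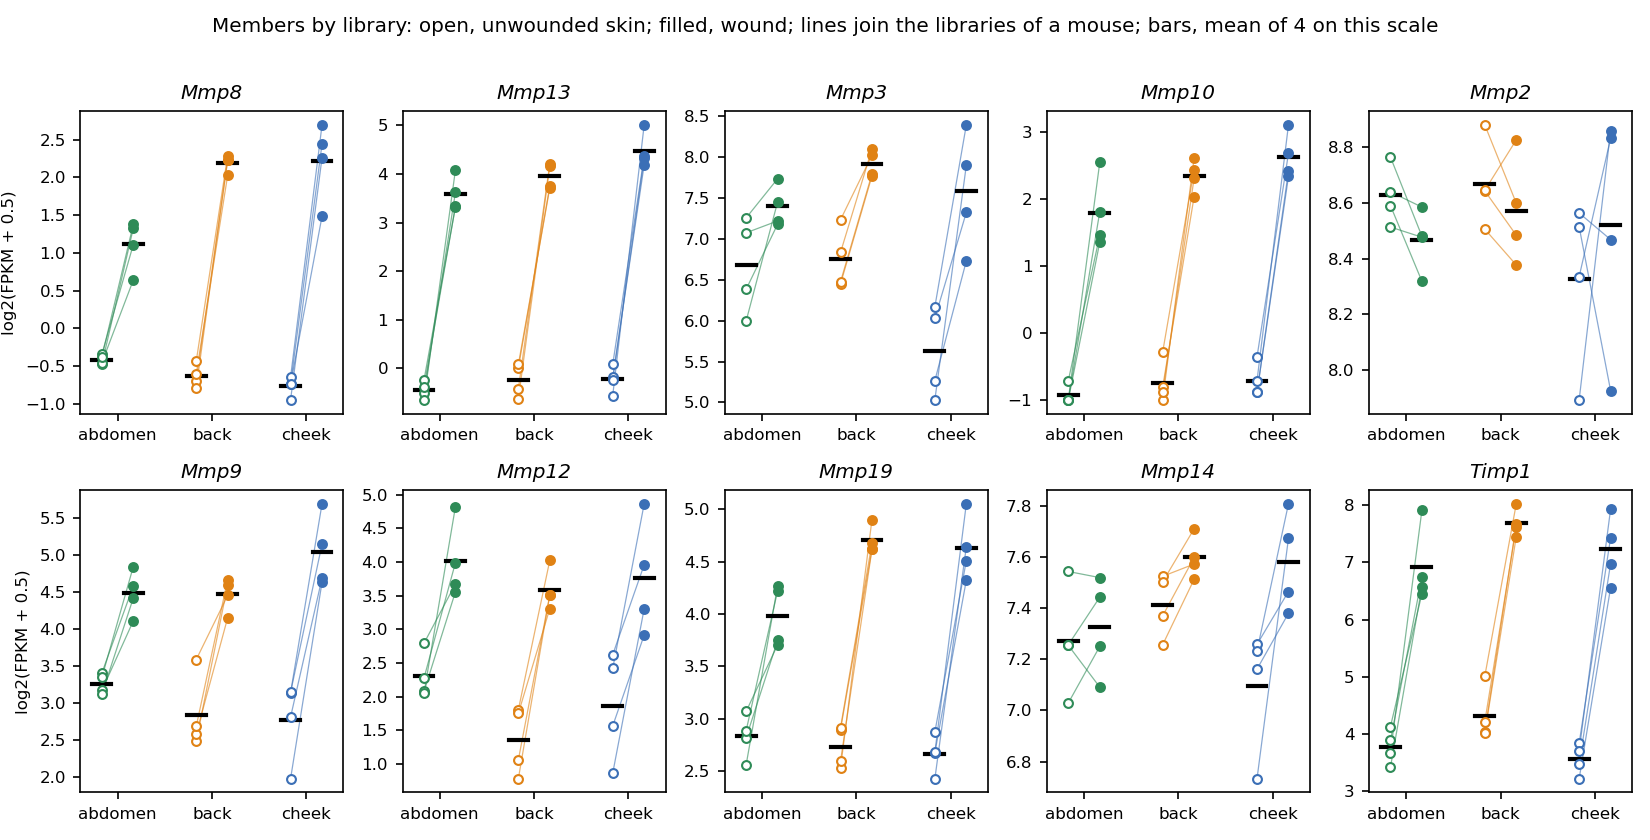
Each panel plots 1 gene as log2(FPKM + 0.5) on its own vertical axis, with unwounded skin (open points) and wounds (filled points) at the 3 sites, a line for each mouse and a bar for the mean of 4 on this scale. Mmp8, Mmp10 and Mmp13 rise from near the floor at all sites, Timp1 rises from 8.83 to 31.76 FPKM to 86.83 to 258.94 FPKM, and the unwounded and wound points of Mmp2 overlap everywhere.

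In the comparison of wound with unwounded skin of the same mouse, 6 of the 10 members changed in abdomen, 7 in back and 8 in cheek at an adjusted p under 0.001, and each of these rose. Among all 14423 genes tested, 4.96% changed in abdomen, 14.4% in back and 8.69% in cheek, which were 565, 1443 and 938 genes that rose and 150, 631 and 316 that fell. Mmp8, Mmp9, Mmp10, Mmp13, Mmp19 and Timp1 rose at all 3 sites, as did 3.31% of all genes tested. Mmp12 passed at 2 sites, Mmp3 at 1, and Mmp2 and Mmp14 at none. In the same site order, the median log2 fold change of the 10 members was 1.38, 2.10 and 2.12, against -0.01, 0.07 and 0.01 over all genes tested. Mmp8, Mmp10 and Mmp13 did not exceed 0.56 FPKM in any unwounded library and passed the filter on low values through the wounds, so those 3 could only have been tested as genes that rise, and of the other 7 members 3, 4 and 5 rose at the 3 sites. Every wound library lay above every unwounded library for 7 members in abdomen, 8 in back and 9 in cheek, where 13.4%, 25.0% and 16.7% of all genes tested did so. The wound was higher in 4 of 4 mice for 8 members in abdomen, 9 in back and 9 in cheek, as for 23.7%, 33.9% and 25.0% of all genes. The model (limma) took log2(FPKM + 0.5) of the 24 libraries and removed the level of each mouse, and changes are given as log2 fold change ± standard error (SE). Sign changes within 4 mice cannot give an exact two-sided p below 0.125, so single genes have no model-free test at this size.

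The collagenases Mmp8 and Mmp13 cut fibrillar collagens, Mmp8 being known as the collagenase stored by neutrophils and Mmp13 as the main interstitial collagenase of rodents. In abdomen, Mmp13 measured 0.2, 0.35, 0.14 and 0.27 FPKM in the unwounded skin of mice 1 to 4 and 11.87, 9.52, 16.49 and 9.62 FPKM in their wounds. On the back its values were 0.25, 0.51, 0.56 and 0.15 FPKM without a wound and 18.05, 13, 12.61 and 17.37 FPKM in wounds. Cheek skin gave 0.18, 0.38, 0.35 and 0.56 FPKM, and cheek wounds 31.68, 17.77, 19.46 and 20.03 FPKM. The lowest of the 12 wounds, at 9.52 FPKM, lay far above the highest of the 12 unwounded samples, at 0.56 FPKM. On this scale Mmp13 had the largest fitted rise of the members, 4.04 ± 0.25 in abdomen (adjusted p = 1.04e-06), 4.19 ± 0.25 in back (adjusted p = 3.53e-07) and 4.69 ± 0.25 in cheek (adjusted p = 1.60e-07).

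Mmp8 was lower than Mmp13 in all 12 wounds, but in unwounded abdomen their values overlapped. Unwounded abdomen gave 0.22, 0.29, 0.23 and 0.27 FPKM for Mmp8, and abdominal wounds 2.01, 1.66, 1.06 and 2.1 FPKM. Unwounded back gave 0.12, 0.08, 0.24 and 0.16 FPKM, and back wounds 4.18, 4.21, 4.38 and 3.58 FPKM. Unwounded cheek gave 0.1, 0.02, 0.14 and 0.1 FPKM, and cheek wounds 4.93, 4.29, 5.97 and 2.3 FPKM. All 12 wounds lay above all 12 unwounded samples, and the 4 abdominal wounds lay below the 8 others. Cheek showed a rise of 2.99 ± 0.18 (adjusted p = 3.01e-07), back 2.82 ± 0.18 (adjusted p = 3.87e-07) and abdomen 1.53 ± 0.18 (adjusted p = 8.08e-05). With unwounded values this low the fitted rise depends on the constant added before taking logarithms, and across the other settings it ran from 1.09 to 2.32 in abdomen for Mmp8 and from 3.35 to 5.14 for Mmp13.

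The stromelysins Mmp3 and Mmp10 cut proteoglycans, laminin and fibronectin and can activate other pro-MMPs, and in wounds Mmp10 is known from the migrating keratinocytes at the edge. Mmp10 was listed at 0 in 4 of the 12 unwounded libraries, 3 of them from abdomen, and reached at most 0.32 FPKM, in back mouse 1. Abdominal wounds measured 5.36, 3.01, 2.25 and 2.06 FPKM for Mmp10, back wounds 4.93, 3.61, 5.64 and 4.48 FPKM, and cheek wounds 4.57, 4.85, 5.94 and 8.15 FPKM. Every wound was above every unwounded sample, and the ranges of the 3 sites overlapped among the wounds. Abdominal Mmp10 rose by 2.72 ± 0.21 (adjusted p = 4.74e-06), back Mmp10 by 3.10 ± 0.21 (adjusted p = 7.68e-07) and cheek Mmp10 by 3.35 ± 0.21 (adjusted p = 4.53e-07), and these fitted sizes ran from 1.96 to 4.87 across sites and other settings.

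Mmp3, by contrast, was abundant before wounding. In abdomen, Mmp3 measured 63.39, 152.48, 134.34 and 83.04 FPKM in unwounded skin and 174.54, 212.69, 148.56 and 144.46 FPKM in wounds. In back, Mmp3 measured 86.98, 88.47, 150.04 and 113.64 FPKM, and 217.7, 221.45, 259.59 and 273.9 FPKM in wounds. In cheek, Mmp3 measured 64.94, 38.04, 71.57 and 32.24 FPKM, and 159.74, 105.69, 335.83 and 238.35 FPKM in wounds. The wound was higher in 4 of 4 mice at each site, but in abdomen the ranges overlapped. Only cheek passed the threshold, with a rise of 1.96 ± 0.25 (adjusted p = 0.000113), while the estimate was 1.17 ± 0.25 in back (adjusted p = 0.00243) and 0.72 ± 0.25 in abdomen (adjusted p = 0.0415). Without cheek mouse 3 the cheek call was lost (adjusted p = 0.00117), and without cheek mouse 4 the back estimate passed (adjusted p = 0.000604). Fitted in limma on the 8 libraries of each site alone, back passed (adjusted p = 3.27e-05) and cheek did not (0.00396).

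The gelatinases Mmp2 and Mmp9 cut denatured collagen and the type IV collagen of basement membranes, Mmp2 being known as a steady product of dermal fibroblasts and Mmp9 as one of leukocytes and of keratinocytes at wound edges. Their results differed. Mmp2 had the highest level of all members in every library, with 237.1 to 470.93 FPKM in unwounded skin and 242.55 to 464.22 FPKM in wounds. The estimate for abdomen was -0.16 ± 0.19 (95% interval -0.56 to 0.24), that for back -0.10 ± 0.19 (-0.50 to 0.31) and that for cheek 0.20 ± 0.19 (-0.21 to 0.60), with adjusted p of 0.532, 0.695 and 0.438. It was lower in the wound in 4 of 4 abdomen mice, in 3 of 4 back mice and in 2 of 4 cheek mice, and the lowest unwounded value, 237.1 FPKM in cheek mouse 4, was followed by 464.22 FPKM in that animal's wound.

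Mmp9 measured 10.07, 8.49, 9.65 and 8.17 FPKM in unwounded abdomen and 23.4, 16.72, 28.11 and 20.84 FPKM in its wounds. For back the values of Mmp9 were 5.1, 11.49, 5.48 and 5.92 FPKM, and 23.62, 21.35, 17.23 and 24.8 FPKM in wounds. For cheek they were 8.3, 6.51, 8.33 and 3.44 FPKM, and 50.92, 25.17, 34.76 and 24.21 FPKM in wounds. No wound overlapped an unwounded sample, and cheek mouse 1 stood highest. Mmp9 rose by 1.23 ± 0.18 in abdomen (adjusted p = 0.000493), 1.63 ± 0.18 in back (adjusted p = 2.87e-05) and 2.27 ± 0.18 in cheek (adjusted p = 3.19e-06). The abdominal call was lost, with an adjusted p of up to 0.00439, when any of the 4 abdomen mice or back mouse 3 was left out.

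Mmp12, the macrophage metalloelastase, cuts elastin. It measured 3.72, 6.43, 4.35 and 3.66 FPKM in unwounded abdomen and 11.28, 12.26, 15.39 and 27.8 FPKM in wounds, 3, 1.59, 2.87 and 1.22 FPKM against 15.78, 10.89, 9.41 and 10.92 FPKM in back, and 4.85, 1.32, 5.66 and 2.46 FPKM against 28.6, 9.38, 15.04 and 7.04 FPKM in cheek. The lowest wound, 7.04 FPKM, was just above the highest unwounded value, 6.43 FPKM. Mmp12 rose by 2.24 ± 0.29 in back (adjusted p = 0.000119) and 1.89 ± 0.29 in cheek (adjusted p = 0.000538), and the estimate in abdomen was 1.71 ± 0.29 (adjusted p = 0.00147). These calls were close to the threshold: the cheek call was lost without any one of the 4 cheek mice, and without abdomen mouse 3 or back mouse 1 or 2 (adjusted p 0.00111 to 0.00494), and the back call without back mouse 2 or 4 (0.00128 and 0.00117). Mmp12 shares 157 of its 7237 exon bases with Mmp1b on the opposite strand, and whether counting used strand is not given, although Mmp1b itself did not exceed 1.17 FPKM.

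Mmp19, a secreted MMP named in basement membrane turnover, rose from a low and even level. Unwounded skin gave 5.4, 7.9, 6.56 and 6.9 FPKM in abdomen, 5.28, 6.95, 7.04 and 5.54 FPKM in back and 6.83, 5.89, 5.91 and 4.88 FPKM in cheek. Wounds gave 18.77, 12.55, 12.94 and 18.16 FPKM in abdomen, 29.41, 24.06, 25.08 and 24.04 FPKM in back and 22.28, 19.53, 32.7 and 24.48 FPKM in cheek. Abdominal wounds again lay below all the other wounds. Mmp19 rose by 1.97 ± 0.17 in both back (adjusted p = 3.90e-06) and cheek (adjusted p = 4.98e-06), and by 1.15 ± 0.17 in abdomen (adjusted p = 0.000488). Leaving out abdomen mouse 1, 3 or 4 or back mouse 4 ended the abdominal call (adjusted p 0.00104 to 0.00409), as did fitting without a filter, other scalings (median-ratio, quantile, TPM) or the abdominal libraries alone (up to 0.00787). The gene shares 789 of 3533 exon bases with Tmem198b and 212 with Gm47093, both on the opposite strand, so its level is uncertain to that extent.

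Mmp14, the membrane-bound MT1-MMP that activates pro-Mmp2 at the cell surface, was the next most abundant MMP in unwounded skin. It measured 105.86 to 186.08 FPKM in unwounded skin and 135.84 to 223.66 FPKM in wounds. The estimates were 0.05 ± 0.11 in abdomen (95% interval -0.19 to 0.30, adjusted p = 0.741), 0.19 ± 0.11 in back (-0.06 to 0.43, adjusted p = 0.202) and 0.49 ± 0.11 in cheek (0.24 to 0.73, adjusted p = 0.00565). In cheek every wound (166.06, 176.21, 223.66 and 203.63 FPKM) lay above every unwounded sample (142.66, 152.61, 149.99 and 105.86 FPKM), and the wound was higher in 4 of 4 mice there and in back, against 2 of 4 in abdomen. Under quantile normalisation the estimate turned to -0.061 in abdomen and -0.0064 in back.

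Timp1, the secreted inhibitor of most MMPs, rose at all sites to levels above those of any member but Mmp2, Mmp3 and Mmp14. In abdomen, Timp1 measured 12.3, 17.03, 14.31 and 10.21 FPKM in unwounded skin and 239.74, 86.83, 106.42 and 94.45 FPKM in wounds. In back, Timp1 measured 18.09, 15.94, 31.76 and 15.74 FPKM, and 195.45, 201.98, 258.94 and 173.9 FPKM in wounds. In cheek, Timp1 measured 8.83, 10.71, 13.84 and 12.58 FPKM, and 93.73, 125.55, 171.83 and 243.27 FPKM in wounds. Unwounded and wound values did not overlap, and the wounds of the 3 sites did. Timp1 rose by 3.14 ± 0.24 in abdomen (adjusted p = 7.75e-06), 3.36 ± 0.24 in back (adjusted p = 1.71e-06) and 3.66 ± 0.24 in cheek (adjusted p = 1.16e-06). Without abdomen mouse 1, whose wound was highest, the abdominal rise was 2.77 (adjusted p = 4.1e-06). Fitted on the 8 abdominal libraries alone, the abdominal calls of Timp1 (adjusted p = 0.00571), Mmp8 (0.00293) and Mmp10 (0.00164) were lost. Timp1 lies inside Syn1, which runs on the opposite strand, but they share 0 exon bases, and Syn1 stayed between 0.48 and 1.45 FPKM.

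**Figure D2:**
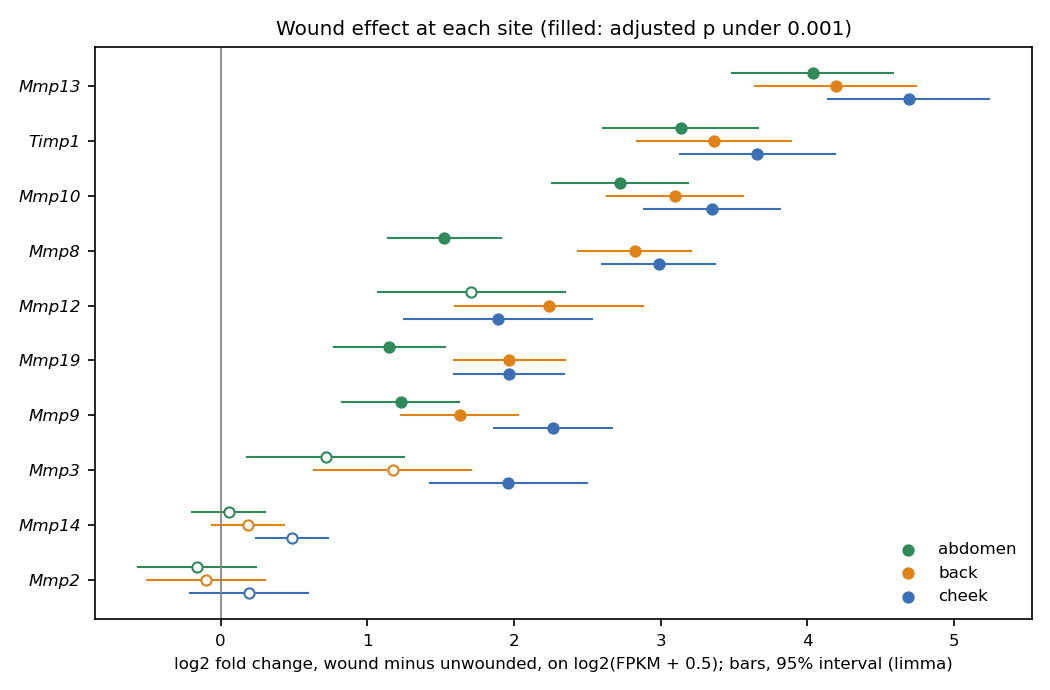
Log2 fold change of wound over unwounded skin for each member (rows) at abdomen, back and cheek (colours), with 95% intervals from limma, and filled points where the adjusted p was under 0.001. Mmp13 (4.04 to 4.69), Timp1 (3.14 to 3.66) and Mmp10 (2.72 to 3.35) are farthest right, in an order that depends on the 0.5 added (the ratio of mean FPKM in back was 43.4 for Mmp10 and 10.2 for Timp1), and the intervals of Mmp2 include 0 at all 3 sites.

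The makeup of the 9 MMP transcripts was then described as shares of their summed FPKM, with no test since the members are a chosen list. In unwounded skin Mmp2 made up 59.3% ± 3.2 (SD, n = 12), Mmp14 24.4% ± 1.9 and Mmp3 13.5% ± 4.1 of the sum, and in wounds 43.9% ± 3.0, 21.7% ± 2.6 and 24.0% ± 4.0. Mmp2 was at 54.6% to 64.1% in unwounded libraries and 40.1% to 49.0% in wounds, without overlap. Together the 6 less abundant members, Mmp8, Mmp9, Mmp10, Mmp12, Mmp13 and Mmp19, summed to 20.8 ± 1.9 FPKM in unwounded abdomen and 71.3 ± 11 FPKM in its wounds (SD, n = 4). Back reached 83.2 ± 9.7 FPKM, up from 15.995 ± 3.4 FPKM, and cheek 106 ± 29 FPKM, up from 16.7 ± 4.5 FPKM. Their share of the MMP sum rose from 3.08% to 9.51%, from 2.30% to 9.28% and from 3.12% to 12.4%. Most of the wound sum therefore still came from Mmp2, Mmp3 and Mmp14, and in cheek mouse 1, where the 6 reached 17.4%, Mmp9 and Mmp13 were highest of all libraries.

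**Figure D3:**
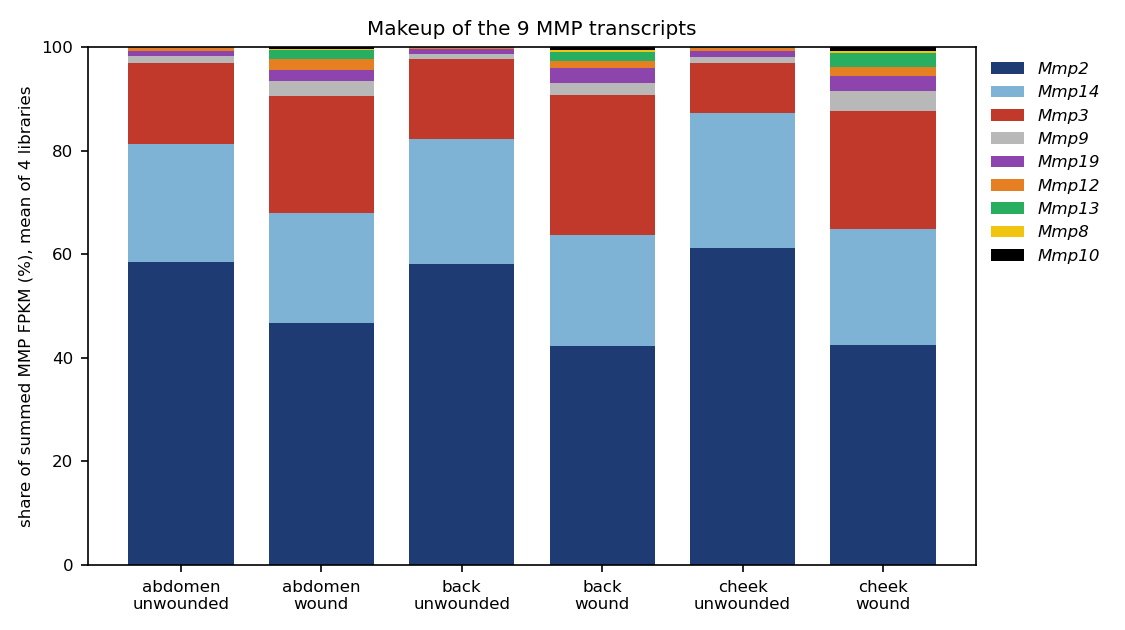
Stacked bars give the mean share (%) of each of the 9 MMP genes in their summed FPKM for the 6 groups of 4 libraries. Mmp2 shrinks from 58.0% to 61.2% of the sum in unwounded skin to 42.3% to 46.8% in wounds, while Mmp3 grows from 9.60% to 15.6% up to 22.4% to 26.9%.

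Summed MMP FPKM were 386.75 to 820.81 in unwounded skin and 605.44 to 1128.95 in wounds. Divided by Timp1 in the same library, the sum was 45.5 ± 12.4 times the Timp1 level without a wound (25.8 to 68.6) and 5.77 ± 2.12 times in wounds (3.15 to 9.31, SD, n = 12 each). The fall was seen in 12 of 12 mice. Unwounded abdomen had a ratio of 51.5 ± 8.3, back 36.7 ± 8.1 and cheek 48.3 ± 16.3, and the wounds of these sites 6.78 ± 2.71, 4.46 ± 1.01 and 6.06 ± 2.09 (SD, n = 4 each). Back had the lowest mean in both states. Among wounds the ranges of the 3 sites overlapped. In unwounded skin all back ratios (25.8 to 45.0) lay below all abdominal ones (46.8 to 64.0), and cheek (30.7 to 68.6) overlapped both. These differences were not tested. Timp1 is the only inhibitor in this ratio, with means of 15.1 FPKM in unwounded skin and 166 FPKM in wounds. The 6 other inhibitors listed summed to 554 and 343 FPKM on average. The fall is therefore one relative to Timp1 and not to MMP inhibitors as a whole. This is a ratio of RNA levels and no measure of free enzyme.

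**Figure D4:**
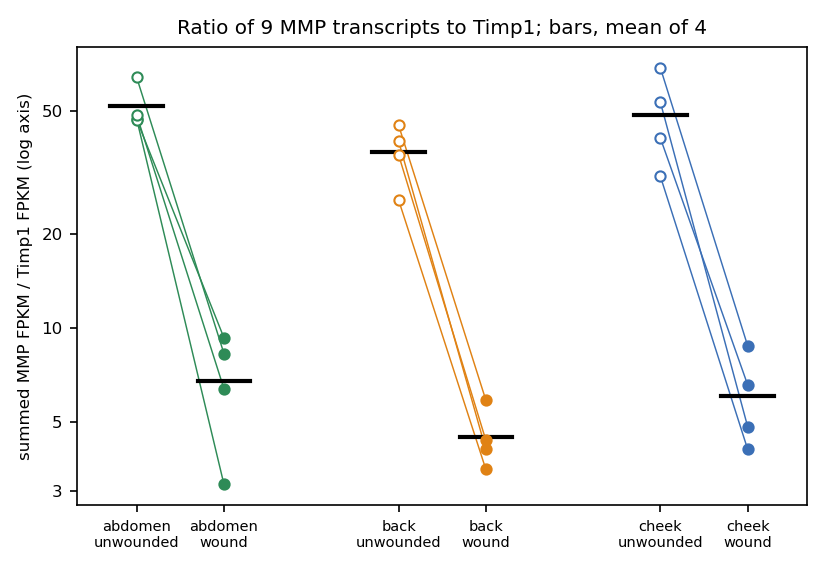
The ratio of summed MMP FPKM to Timp1 FPKM is plotted on a log axis for each library, open for unwounded skin and filled for wounds, with a line for each mouse and a bar for the mean of 4. All 12 lines fall, from between 25.8 and 68.6 to between 3.15 and 9.31. Other inhibitors are not part of the ratio.

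Whether the response to wounding differed between sites was tested on the difference itself. None of the 10 members passed an adjusted p under 0.05 in the moderated F test of limma, and 4 (Mmp3, Mmp8, Mmp9 and Mmp19) had an unadjusted p under 0.05. Over all 14423 genes tested 0.0208% passed, which was 3 genes, and 1867 had an unadjusted p under 0.05. The lowest adjusted p were 0.108 for Mmp8, 0.238 for Mmp9, 0.247 for Mmp19 and 0.268 for Mmp3. The rise of Mmp8 was 1.30 ± 0.25 larger on the log2 scale in back than in abdomen (95% interval 0.75 to 1.84, adjusted p = 0.0883) and 1.46 ± 0.25 larger in cheek than in abdomen (0.91 to 2.01, adjusted p = 0.138). Without abdomen mouse 1 the F test of Mmp8 passed (adjusted p = 0.0290), as it did without cheek mouse 4 (0.0312), and without any other mouse its adjusted p was 0.133 to 0.334. Leaving out abdomen mouse 1 did not lower the unadjusted p of this F test, which went from 0.000112 to 0.000216. The genes that passed went from 3 to 315, which eases the adjustment. For Mmp3 the cheek rise exceeded the abdominal one by 1.24 ± 0.35 (0.49 to 2.00, adjusted p = 0.287), and for Mmp9 by 1.04 ± 0.26 (0.47 to 1.60, adjusted p = 0.276). The estimated rise of Mmp19 was 0.82 ± 0.25 larger in back and in cheek than in abdomen (adjusted p = 0.172 and 0.297), and back over abdomen passed without abdomen mouse 1 (1.00, adjusted p = 0.0375). Over all genes, 0 passed for back over abdomen with every mouse, and up to 597 with a mouse left out. The differences for Timp1 were 0.23 (-0.52 to 0.97) for back and 0.52 (-0.22 to 1.27) for cheek over abdomen, intervals that leave room for differences of either direction.

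Among the 12 wounds alone, abdomen had the lowest mean for several members. It had the highest for Mmp12 (16.7 FPKM, against 15.0 FPKM in cheek and 11.75 FPKM in back), and for Mmp9 back was lowest. Neither Mmp12 difference from abdomen passed in limma (adjusted p = 0.674 for back and 0.694 for cheek). Of all 14023 genes tested, 7.52% were higher in cheek than in abdominal wounds, and 0.506% in back than in abdominal wounds. Cheek wounds held more Mmp8 (1.11 ± 0.23, adjusted p = 0.0173), Mmp13 (0.87 ± 0.21, adjusted p = 0.0278) and Mmp19 (0.65 ± 0.17, adjusted p = 0.0328), so 3 of 10 members were higher. Back wounds held more Mmp8 (1.08 ± 0.23, adjusted p = 0.0474), 1 of 10 members, and in the same comparison Mmp19 was at 0.72 ± 0.17 (adjusted p = 0.0582). Between cheek and back 0 of 10 members passed in limma, where 2.50% of all genes did, and 2 had an unadjusted p under 0.05, Mmp9 (0.57 ± 0.23, adjusted p = 0.145) and Mmp13 (0.51 ± 0.21, adjusted p = 0.152). In that comparison 3659 of the 14023 genes had an unadjusted p under 0.05. Mmp10 in cheek over abdomen was just short of the threshold (0.85 ± 0.25, adjusted p = 0.0509). Libraries did not overlap for Mmp3, Mmp8 and Mmp19 between back and abdomen and for Mmp8, Mmp13 and Mmp19 between cheek and abdomen. The exact permutation p is then fixed at the smallest two-sided value that 4 against 4 allow, 0.0286, and adds nothing to the non-overlap. Non-overlap was seen in 9.16% and 19.0% of all genes tested in those comparisons, and in 21.3% between cheek and back, where no member showed it.

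Of these 4 calls, 3 were lost without some single mouse. The Mmp8 call between back and abdomen was lost without abdomen mouse 2 or 3, without any back mouse, or without cheek mouse 1 or 2, with adjusted p between 0.0537 and 0.125. In cheek over abdomen, Mmp8 stayed past the threshold whichever mouse was left out, Mmp13 was lost without abdomen mouse 4 or cheek mouse 1, 3 or 4 (adjusted p 0.0501 to 0.0533), and Mmp19 without abdomen mouse 2 or 3 or cheek mouse 1, 3 or 4 (0.0536 to 0.0941). Abdomen and back share the number of wounds per mouse, while cheek differed from both in it.

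**Figure D5:**
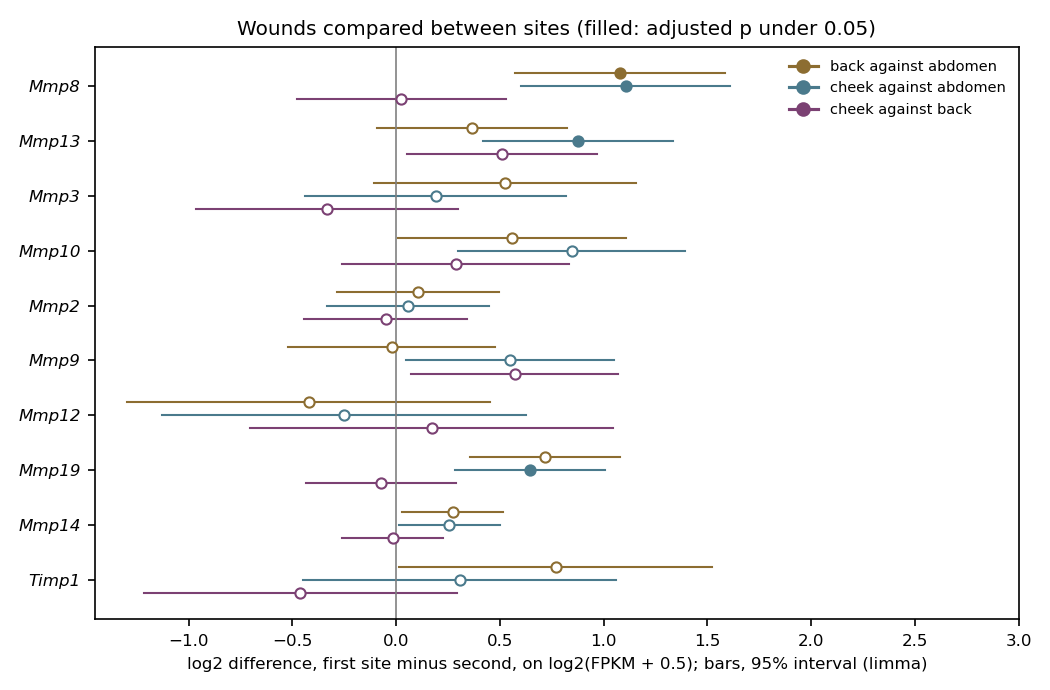
Log2 differences between the wounds of 2 sites for each member, first site minus second, with 95% intervals from limma over the 12 wound libraries, and filled points where the adjusted p was under 0.05. The filled points are Mmp8 for back over abdomen (1.08) and Mmp8 (1.11), Mmp13 (0.87) and Mmp19 (0.65) for cheek over abdomen.

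In unwounded skin, 7 of the 10 members passed the filter on low values and 0 of 7 differed between any pair of sites in limma, where 2.67% of all 13956 genes tested differed between back and abdomen, 2.57% between cheek and abdomen and 1.05% between cheek and back. An unadjusted p under 0.05 was reached by 2, 1 and 4 of these 7 members, and by 3072, 2650 and 3008 of the 13956 genes. Mmp3 was at its lowest in cheek, at 32.24 to 71.57 FPKM against 63.39 to 152.48 in abdomen and 86.98 to 150.04 in back, with differences of -1.05 ± 0.33 (adjusted p = 0.112) and -1.12 ± 0.33 (adjusted p = 0.119). Cheek Timp1 (8.83 to 13.84 FPKM) lay below all back values (15.74 to 31.76 FPKM), by -0.76 ± 0.22 (adjusted p = 0.119). Mmp12 was lower in back (1.22 to 3 FPKM) than in abdomen (3.66 to 6.43 FPKM), by -0.95 ± 0.37 (adjusted p = 0.171). Mmp3 and Timp1 did not overlap between cheek and back, 2 of the 7 members against 14.6% of all genes tested. Mmp12 did not overlap between back and abdomen, 1 of 7 against 13.3%, and between cheek and abdomen 0 of 7 stood apart, against 10.6%. The median over all genes was itself -0.12 for back over abdomen and 0.14 for cheek over back in the values as deposited. Cheek mouse 4 had the lowest unwounded Mmp2, Mmp3, Mmp9 and Mmp14 of all 12 mice and the lowest macrophage and fibroblast marker sums (733.33 and 876.17 FPKM).

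Ordered by mean level over the 6 groups, 7 members (Mmp8, Mmp9, Mmp10, Mmp12, Mmp13, Mmp19 and Timp1) had the 3 wound groups on top, and their lowest wound group did not overlap the unwounded group next in order. Of these, Mmp8, Mmp10 and Mmp13 passed the filter on low values through the wounds, so for those 3 that order was largely set by the filter. How many of all genes show this order was not counted. Neighbouring wound groups overlapped in all members except Mmp8 and Mmp19, where abdominal wounds stood apart from those of the site above. For Mmp3 the wound groups were also on top, but each neighbour in the order overlapped the next. Mmp2 ran from 408 FPKM in unwounded back to 326 FPKM in unwounded cheek, and no neighbours in its order were separate.

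Of 14 other MMP genes listed, 10 were tested, and 0 rose in abdomen, 1 in back and 2 in cheek, with medians of 0.14, 0.10 and 0.22. Of all 14423 genes tested, 565, 1443 and 938 rose, with medians of -0.01, 0.07 and 0.01. Mmp11, or stromelysin-3, rose by 1.94 in back (adjusted p = 0.00025) and 2.33 in cheek (adjusted p = 0.0001), from means of 4.80 and 5.72 FPKM to 20.2 and 33.3 FPKM, and was at 1.42 in abdomen (adjusted p = 0.0034). Mmp1b, a rodent relative of the interstitial collagenase, rose in cheek by 1.54 (adjusted p = 0.00056) but did not exceed 1.17 FPKM, and, at 0 to 0.19 FPKM in unwounded skin, could only have been tested as a gene that rises. Of the chromosome 9 cluster, Mmp27, named after its values were seen, lies beside Mmp8 and went from a mean of 26.1 FPKM in unwounded skin to 14.0 FPKM in wounds, with log2 fold changes of -1.02, -0.89 and -0.86 that did not pass the threshold (adjusted p = 0.0031, 0.0038 and 0.0062). Mmp7 and Mmp20 did not exceed 0.13 FPKM in any library.

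Of 6 inhibitors listed beside Timp1, 4 were tested, none rose, and 1 fell in abdomen, 3 in back and 1 in cheek, where 1.04%, 4.37% and 2.19% of all genes fell. Timp3, the TIMP held in the matrix, fell by 1.14, 0.99 and 1.05 on the log2 scale (adjusted p = 0.00012, 0.00015 and 0.00014), from 58.1 to 69.5 FPKM in unwounded group means to 28.0 to 34.2 FPKM. Reck, a membrane-anchored MMP inhibitor, fell in back by 1.02 (adjusted p = 0.00041), as did Timp4 by 1.48 (adjusted p = 0.00046). Timp2, named after its values were seen, had the highest level of the inhibitors in unwounded skin, with group means of 407 to 555 FPKM there and 291 to 318 FPKM in wounds, and its estimates of -0.59, -0.84 and -0.48 did not pass (adjusted p = 0.020, 0.0018 and 0.042).

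Genes around the MMPs were summarised from lists of known partners, to be read beside the 565, 1443 and 938 of all 14423 genes tested that rose in abdomen, back and cheek. Of 9 tested genes for proteases that act on pro-MMPs and their receptors, 1 rose in abdomen, 3 in back and 4 in cheek, with 1, 1 and 0 that fell. Plaur, the urokinase receptor, rose by 2.49, 2.86 and 3.20 (adjusted p = 8.3e-06, 1.1e-06 and 6.4e-07). Furin, which activates Mmp14 inside the cell, rose in back (0.57, adjusted p = 0.00075) and cheek (0.66, adjusted p = 0.00038). The cytokines known to induce MMP genes, 6 tested, rose in 4, 5 and 4 cases, but 2 of the 6 passed the filter on low values only through the wounds. Il1b went from group means of 1.00 to 2.70 FPKM to 116 to 261 FPKM (5.51, 7.11 and 6.39, adjusted p = 1.1e-05, 8.5e-07 and 1.9e-06), and Osm, Tnf and Tgfb1 also rose at all 3 sites. Of 11 AP-1 and ETS factors, 1 rose in abdomen, 6 in back and 3 in cheek, Junb at all 3 (1.32, 1.89 and 1.46, adjusted p = 3.3e-05, 8.6e-07 and 6.8e-06), and Fos in back (2.62, adjusted p = 0.00016).

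Of 12 matrix genes, 1 rose in abdomen, 5 in back and 6 in cheek, with 0, 1 and 0 that fell, beside 565, 1443 and 938 rises and 150, 631 and 316 falls among all 14423 genes tested. Their summed FPKM, most of it from collagen genes, was 15904 on average in unwounded skin (9084.65 to 22817.9) and 9940 in wounds (6296.02 to 12656.5). The gene that fell was Col1a2, a chain of type I collagen (-1.26 in back, adjusted p = 0.00048), with estimates of -0.94 in abdomen and -1.06 in cheek that did not pass (adjusted p = 0.0057 and 0.0021). Spp1, osteopontin, which MMPs cut, rose by 4.92, 5.28 and 5.44 (adjusted p = 1.7e-05, 3.5e-06 and 3.6e-06). Of 9 surface partners, 1, 2 and 3 rose, among them Cd44, a docking site for Mmp9, at all 3 sites (0.92 in abdomen and 1.50 in back, adjusted p = 0.00034 and 3.5e-06).

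Markers of cell types moved with the wound comparison as well. Neutrophil markers summed to 17.96 to 71.37 FPKM in unwounded skin and 363.92 to 2417.18 FPKM in wounds, with 5, 6 and 6 of 10 tested markers higher at the 3 sites, and 3 of the 10 passed the filter only through the wounds. In wounds, most of that sum came from S100a8 and S100a9. Ly6g, a defining neutrophil marker, was listed at 0 in 11 of 12 unwounded libraries and at 0.07 to 0.9 FPKM in wounds, and Mpo, the peroxidase of neutrophil granules, at 7.58 to 36.85 FPKM in unwounded skin and 2.11 to 23.41 FPKM in wounds. Macrophage markers summed to 733.33 to 1577.91 and 1611.39 to 3031.1 FPKM (5, 8 and 7 of 10 higher), fibroblast markers to 876.17 to 1969.71 and 804.54 to 1253.78 FPKM (0, 0 and 1 of 8 higher and 0, 1 and 0 lower) and wound keratinocyte markers such as Krt6a and Krt16 to 407.76 to 1348.21 and 2684.79 to 17753.5 FPKM (6, 6 and 5 of 7 higher). Of all 14423 genes tested, 565, 1443 and 938 rose and 150, 631 and 316 fell at the 3 sites. The part of these cell types in the rise of the members was not tested.

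Beside the site differences among wounds, 1 of 10 neutrophil markers was higher in cheek than in abdomen (Csf3r, 1.01, adjusted p = 0.0465) and 1 lower (Mpo, -1.95, adjusted p = 0.0109), 0 of 10 macrophage markers differed, and 2 of 8 fibroblast markers (Pdgfra and Pi16), 2 of 8 skeletal muscle markers, 2 of 4 mast cell markers and 1 of 5 endothelial markers were higher in cheek. Of all 14023 genes tested, 1054 were higher in cheek than in abdominal wounds and 465 lower. The part of cell makeup in the higher Mmp8, Mmp13 and Mmp19 of cheek wounds was not tested. Abdominal wounds had the widest ranges of the neutrophil, macrophage and wound keratinocyte sums. Of these wounds, that of mouse 1 had the highest Timp1, Mmp10 and Mmp19. Its neutrophil and wound keratinocyte sums were 2417.18 and 17753.5 FPKM, and its macrophage sum was 1611.39 FPKM. The wound of mouse 4, with the highest Mmp2, Mmp8 and Mmp12, had 363.92, 2684.79 and 2868.51 FPKM in the same order.

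Likeness among the members was described over the 12 wound libraries as Pearson's r of log2(FPKM + 0.5) after subtracting the site mean, with no test, since libraries share their makeup of cells. The closest pairs were Mmp9 with Mmp13 (r = 0.86), Mmp10 with Timp1 (0.86) and Mmp2 with Mmp3 (0.85), and the most opposed was Mmp13 with Mmp14 (-0.63). Among 12031 genes with at least 1 FPKM in every wound, Timp1 was most like Tnc, the matrix protein tenascin C (0.98), and Odc1, ornithine decarboxylase (0.92). With 12031 genes searched over 12 libraries, the highest r can be large through the search alone. The genes named here are therefore a description and not established partners. Mmp2 and Mmp3 were both most like Cpa3, carboxypeptidase A of mast cells (0.90 and 0.90), followed by Larp6 (0.90) for Mmp2 and Adamts15, another metalloproteinase (0.88), for Mmp3. Mmp12 was closest to Ppp2r5a (0.95) and Cidec (0.93), Mmp10 to Ccdc71l (0.95) and Sec23b (0.94), and Mmp13 to Pecr (0.94) and Uimc1 (0.92). Mmp8 was nearest to Trmt10b and Kcnk6 (0.91 each), Mmp9 to Ss18l2 (0.89) and Chst1 (0.88), Mmp14 to Cyb561 (0.88) and Nat8f3 (0.86), and Mmp19 to Uaca (0.89) and Slc7a11 (0.84).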

How the data were processed

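RNA-seq of 24 skin libraries was analysed from the table that the authors deposited as FPKM, 1 value per gene and library, rounded to 2 decimals. Per the study's methods and the submitters' processing notes, paired-end reads were mapped to GRCm38 (mm10) with HISAT2 and, for transcripts, Bowtie2 2.2.5, and quantified per library with RSEM 1.2.12, with no scaling between libraries. Whether counting used strand is not given in the sources used here. A further deposited table holds log2 fold changes and adjusted p-values that the authors computed with DESeq2, and it was not used. No sample column was left unused.

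Values were tested as log2(FPKM + 0.5) with limma 3.58.1 (R 4.3.3, trend and robust), for genes that reached 0.5 FPKM in 4 or more of a fit's libraries. Fold changes on this scale understate those of low genes. Wound effects were fitted over 24 libraries with a term per mouse (threshold 0.001, adjusted by Benjamini-Hochberg), site differences within the 12 unwounded or 12 wound libraries (threshold 0.05), and differences between wound effects by a moderated F test. The wound and unwounded libraries of a mouse were paired because they came from the same animal. Across genes, deviations from group means correlated within mice with a mean r of 0.322, 0.348 and 0.281 (abdomen, back, cheek) and between mice with -0.108, -0.116 and -0.0958. The deviations of a group sum to 0, so the negative values between mice follow from the positive ones within mice and are no separate evidence. Exact permutation tests of single genes were two-sided. 0 pairs of libraries held identical values.

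On simulated data with 200 genes changed by 1 on the log2 scale, the wound test in abdomen recovered 67.5% of them, the F test 73% and the tests between sites 78.5% (unwounded, back against abdomen) and 73% (wounds, cheek against back).

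Members, gene lists and tests were chosen with earlier results of these data known. The text names all members and, from each list, up to 4 genes called in wounds at the most sites, ties broken by the largest absolute mean log2 fold change, a list with none called giving its 2 most abundant genes, plus Syn1 and the 2 genes most like each member. Markers that define the tissue or differed between wounds of the sites (Krt5, Krt10, Ly6g, Mpo, Pdgfra, Pi16) and the matrix gene that fell (Col1a2) were named after their values were seen. The depth of a library is unknown, since FPKM hold no counts. Promoters and coordinates are RefSeq GRCm38.p6, and exon overlaps GENCODE vM21. Protein sequences were not analysed here. 1 gene that the rule names among the matrix genes is not reported here. Alternatives were other pseudocounts, filters, scalings, moderation and blocks, each site alone, and leaving out each mouse.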

Additional observations from a re-analysis of the deposited data

Results flagged for a closer look

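Of 60 groups of 4 libraries (10 members in 6 groups), 5 held a library whose gap to its nearest neighbour, divided by the range of the group, exceeded Dixon's 95% critical value for 4 samples. Chance gives about 1 such group in 20.

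In back unwounded skin, Mmp9 stood at 11.49 FPKM in mouse 2 against 5.1 to 5.92 FPKM in the others, and without that mouse the wound effect in back went from 1.63 to 1.88. In abdomen unwounded skin, Mmp10 was 0.11 FPKM in mouse 3 and listed at 0 in the others. In cheek wounds, Mmp13 was 31.68 FPKM in mouse 1 against 17.77 to 20.03 FPKM, and without it the difference of cheek over abdomen no longer passed (0.70, adjusted p = 0.0533). In abdominal wounds, Timp1 was 239.74 FPKM in mouse 1 against 86.83 to 106.42 FPKM, and without it the difference of back over abdomen went from 0.77 (adjusted p = 0.294) to 1.10 (adjusted p = 0.0662). In back unwounded skin, Timp1 was 31.76 FPKM in mouse 3 against 15.74 to 18.09 FPKM, and without it cheek was lower than back by -0.53 (adjusted p = 0.219) in place of -0.76.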

How the results depend on the processing

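The number of members that rose in wounds was 6 (abdomen), 7 (back) and 8 (cheek), or with 1 mouse left out 4 to 6, 6 to 8 and 6 to 8. With each site fitted on its own 8 libraries it was 1 in abdomen, where Mmp13 kept its call. In this fit fewer libraries inform the spread. Without the mouse terms (no replicate block) the counts were 5, 7 and 7. Between sites, back against abdomen gave 1 member among wounds, and 0 without a filter, with values scaled to the same sum (TPM), without trend, or with the mouse number as a replicate block (a number that pairs no animals between sites, deviations of same-numbered libraries having a mean r of -0.0273 and -0.0507), 2 with all 24 libraries as 6 groups, and 0 to 2 with a mouse left out. For cheek against abdomen the 3 members became 1 to 4 with a mouse left out (1 without cheek mouse 1, 3 or 4). In unwounded skin the 24-library fit called Mmp3, 1 member, for cheek against abdomen and against back (adjusted p = 0.0457 and 0.0397). The difference of responses gave 0 to 1 with a mouse left out, and over all genes 3, but 315 without abdomen mouse 1. The cause was not tested. Direction turned for estimates near 0: Mmp14 in abdomen to -0.061 (quantile normalisation), -0.052 (TPM) and -0.00046 (without abdomen mouse 1, range with a mouse left out -0.00046 to 0.13), Mmp14 in back to -0.0064 (quantile), and Mmp2 in cheek to -0.062 (without cheek mouse 4, range -0.062 to 0.46). Over all genes, with a mouse left out, wound calls ran from 293 to 833 (abdomen, 715), 910 to 2322 (back, 2074) and 543 to 1503 (cheek, 1254), unwounded calls from 109 to 543 (back against abdomen, 373), 81 to 693 (cheek against abdomen, 358) and 73 to 154 (cheek against back, 147), and wound site calls from 22 to 285 (178), 508 to 1703 (1519) and 48 to 1095 (351), and across the other settings these counts ran from 28 to 2204. Median-ratio scaling moved the median of all genes in unwounded skin from -0.12 to -0.0027 (back against abdomen) and from 0.14 to 8.4e-05 (cheek against back). FPKM without counts give no depth, so values of Mmp8, Mmp10 and Mmp13 near 0 carry an unknown counting error.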

Other observations

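Other cell types of full-thickness skin were followed through their marker lists, as values. Adipocyte markers summed to 771.8 to 2630.99 FPKM in unwounded skin and 582.35 to 1339.15 FPKM in wounds, and 3 of 6 fell, in back alone past the threshold, among them Plin1, the coat protein of lipid droplets (-1.65, adjusted p = 7.4e-05), and Cfd, the secreted factor adipsin (-2.10, adjusted p = 0.00065). In back, 4.37% of all genes tested fell. Endothelial markers summed to 68.72 to 105.18 and 96.82 to 129.57 FPKM, and Cdh5, the cadherin of endothelial junctions, rose at all 3 sites (0.87, 0.64 and 0.71, adjusted p = 0.00022, 0.00083 and 0.00061). Of 3 measured T cell markers, Cd4 rose in back (1.39, adjusted p = 5.8e-05) and cheek (1.46, adjusted p = 5.2e-05), and Cd3g fell in back (-0.94, adjusted p = 0.00055). Mast cell markers summed to 43.82 to 84.19 and 44.93 to 116.55 FPKM, with 0 of 4 past the threshold in wounds by limma, and in wounds Cpa3 was higher in cheek than in abdomen (0.71, adjusted p = 0.0278). Red blood cell markers summed to 601.39 to 2240.28 and 408.8 to 2773.15 FPKM, with 0 of 5 past the threshold.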
